A study of Mus musculus with 6 samples.

Results

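In all, 9 mouse genes of retinoid metabolism were followed across yolk sacs with and without an intact Tnrc6a gene: the short-chain oxidoreductase genes Rdh12, Rdh11, Rdh10 and Dhrs3, the retinal dehydrogenase genes Aldh1a1 and Aldh1a2, the retinoic acid hydroxylase gene Cyp26a1, the plasma retinol carrier gene Rbp4 and the retinol uptake receptor gene Stra6. The members were found by gene symbol in the platform annotation of the array, which named 9 probe sets, 1 per gene, among 35557. A further probe set lists Rdh11 together with another gene and was left out. Rdh12 was picked because its signal differed between genotypes in these same arrays, so its values are described and not tested. The other 8 genes were chosen for their place in the pathway.

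Total RNA came from yolk sacs dissected from individual embryos at embryonic day 9.5 and was hybridised to Mouse Gene 1.0 ST arrays. There were 3 arrays of wild-type littermates and 3 of embryos homozygous for a gene trap in Tnrc6a (GW182gt/gt, labelled as Tnrc6a (GW182) mutant). Tnrc6a encodes GW182, the Argonaute partner that carries microRNA silencing to its target mRNAs. Both genotype labels carry an unexplained "mixed", and no treatment is named.

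Vitamin A travels in blood as retinol bound to RBP4, which circulates with transthyretin, and enters many cells through STRA6. Inside the cell retinol is oxidised to retinal in a reversible step, RDH10 driving the oxidation and DHRS3, RDH11 and RDH12 mainly the reduction. ALDH1A enzymes then oxidise retinal irreversibly to retinoic acid, the ligand of the RAR and RXR nuclear receptors, and CYP26 enzymes clear it. The visceral endoderm of the yolk sac is a known source of RBP4 and transthyretin for the early embryo.

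Rdh11 and Rdh12 lie next to each other on chromosome 12 and are transcribed away from each other. Their promoter sequences are shown first because both genes were lowest in the same array and highest in the same array, as described below. The 250 bases before each RefSeq start (GRCm38.p6, gene strand, 5′ to 3′) follow, chr12:79208663-79208912 on the plus strand for Rdh12 and chr12:79191856-79192105 on the minus strand for Rdh11, with a stretch of 14 bases in capitals that both promoters share apart from its 2 middle bases.
Rdh12: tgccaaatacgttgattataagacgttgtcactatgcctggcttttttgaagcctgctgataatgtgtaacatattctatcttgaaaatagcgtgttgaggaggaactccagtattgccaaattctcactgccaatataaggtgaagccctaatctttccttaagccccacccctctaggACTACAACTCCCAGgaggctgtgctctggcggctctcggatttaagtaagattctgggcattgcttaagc
Rdh11: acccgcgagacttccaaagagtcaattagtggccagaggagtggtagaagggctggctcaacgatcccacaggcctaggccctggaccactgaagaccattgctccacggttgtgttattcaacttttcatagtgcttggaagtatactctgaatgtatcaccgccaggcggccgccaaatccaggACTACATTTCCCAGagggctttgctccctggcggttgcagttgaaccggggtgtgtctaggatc
The match began 70 bases before the start in Rdh12 and 64 bases before it in Rdh11. The stretch, with any base at those places, is the core of the known binding sequence of the zinc finger activator Zfp143, and it was chosen for the search after the pair of promoters had been seen. Searched on both strands, it was present in 1.03% of 32851 RefSeq promoter windows of 300 bases (250 before to 50 after a start). Among 78 windows of 61 other retinoid pathway genes it was found in 1, that of Rdh14, a further oxidoreductase gene of the pathway on chromosome 12 (chr12:10390698-10390727, plus strand).
Rdh14: ggagcaaaACTACAAGTCCCAGaaagcccc
Rdh14 read 4.80, 5.18 and 5.17 in wild types 1 to 3, 4.56 in the library labelled mutant 1, and 4.98 and 5.66 in mutants 2 and 3. Its genotypes overlapped, and mutant 3 was its highest array, where Rdh12 and Rdh11 were lowest.

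The retinoic acid response element was searched in the same windows as a direct repeat with a spacer of 5 bases (DR5) on both strands, each half-site being AGGTCA or one of its common forms, with T in place of the G before its closing letters TCA, G in place of its leading A, or both. Of all windows, 0.0974% held one. Of 16 windows of 8 members it was in 1, that of Cyp26a1, and of the 78 windows of the other pathway genes it was in 1, that of Rarb, the retinoic acid receptor beta gene. Both genes are textbook targets of retinoic acid. The matches, in capitals, lie at chr19:37697770-37697799 (plus strand, the repeat reading on the opposite strand) and chr14:16575506-16575535 (minus strand).
Cyp26a1: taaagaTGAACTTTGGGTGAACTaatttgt
Rarb: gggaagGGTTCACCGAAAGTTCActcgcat
None of the windows of members or other pathway genes held the repeat with a spacer of 2 bases, which was present in 0.268% of all windows. A match of letters is a description of the sequence and not of binding.

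The 6 arrays were alike in level, with medians from 5.19 to 5.22 on the deposited log2 scale, and their number limits the precision. Visceral endoderm markers were bright in every array: 8 of 10 listed genes were measured, all 8 passed the filter on dim probe sets, and their mean log2 signal ran from 11.51 to 11.57 in wild type and from 11.39 to 11.71 in the mutants. Tnrc6a, the check of the labels, read 8.40, 7.62 and 8.29 in wild types 1 to 3 and 7.81, 5.33 and 5.20 in mutants 1 to 3. The library labelled mutant 1 thus read above wild type 2 and goes against its label in this gene, so directions given for the mutants include a library whose label is in doubt. With limma and Benjamini-Hochberg adjustment over 16387 tested probe sets, 0 (0.0%) passed an adjusted p of 0.05. At an unadjusted p under 0.05 limma called 579 probe sets (3.53%), and the genotypes did not overlap for 1401 (8.55%).

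Rdh12, which encodes a retinal reductase best known from photoreceptors, had the widest genotype difference among the 9 genes. It read 7.15, 6.89 and 7.57 in wild types 1 to 3, while mutants 1 to 3 read 6.77, 6.11 and 5.56. All 3 mutant arrays lay below all 3 wild-type arrays, but the library labelled mutant 1 lay only 0.12 below wild type 2. Wild type averaged 7.21 ± 0.34 (SD, n = 3) and the mutants averaged 6.15 ± 0.61 (SD, n = 3), a log2 difference of −1.06, or 2.08-fold lower. Set against the mean of the wild types, mutant 1 was 1.35-fold lower, mutant 2 was 2.13-fold lower and mutant 3 was 3.13-fold lower. Mutants 2 and 3, low in Tnrc6a (5.33 and 5.20), were also the lowest for Rdh12 (6.11 and 5.56). The other arrays did not keep a common order. Mutant 1 read above wild type 2 for Tnrc6a (7.81 against 7.62) and below it for Rdh12 (6.77 against 6.89). The Rdh12 values are those for which the gene was picked, so no test is given and no link to Tnrc6a is drawn. Without mutant 3 the difference was −0.76, and without the library labelled mutant 1 it was −1.37. By their limma standard deviation within genotypes, 98.6% of tested probe sets varied no more than Rdh12.

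**Figure D1:**
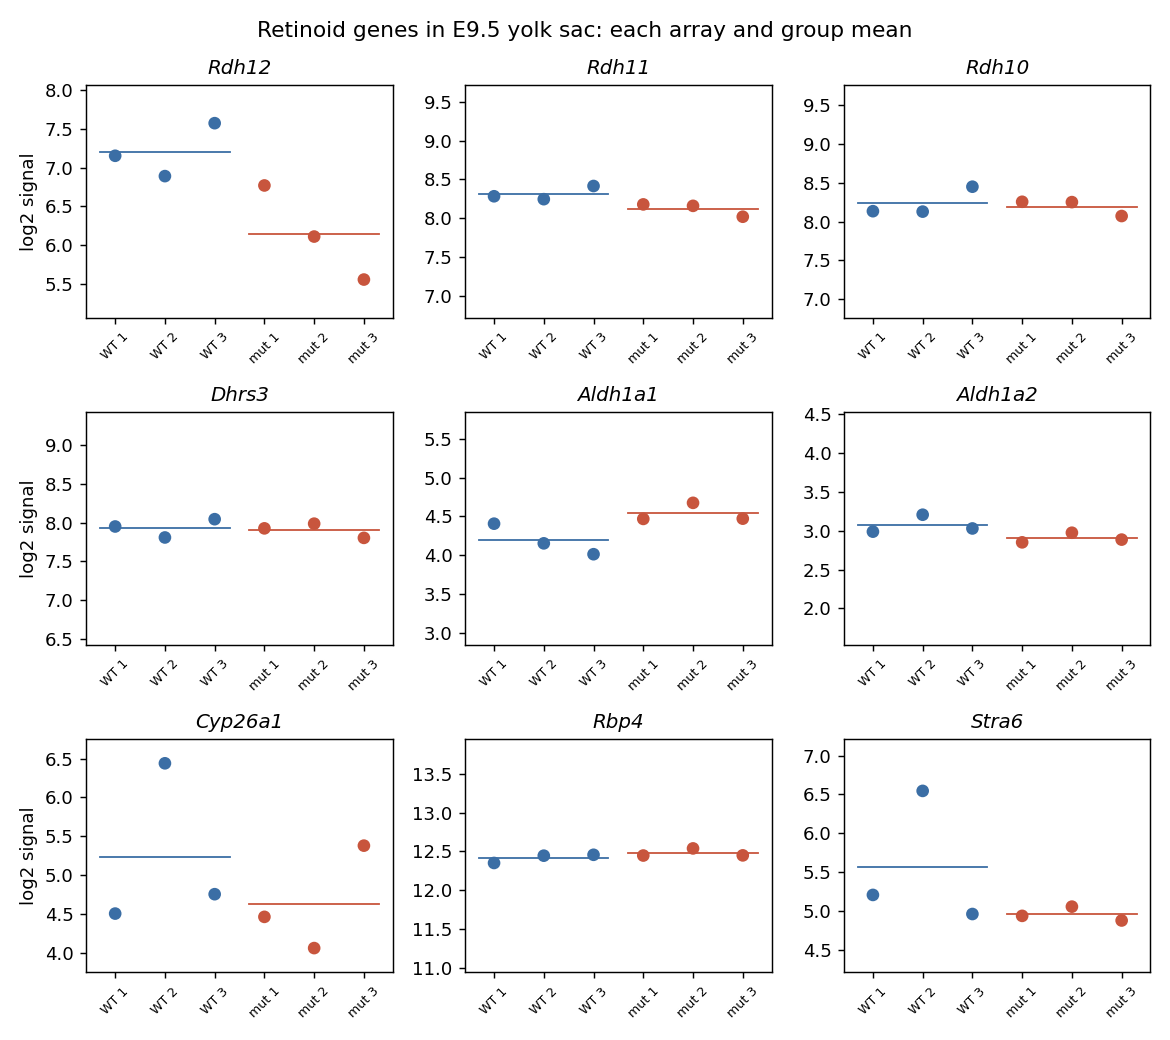
Log2 signal (y axis) of each of the 9 retinoid genes in the 3 wild-type arrays (blue) and the 3 arrays labelled mutant (red), with a line at each group mean; every panel spans 3 log2 units. Rdh12 falls from a wild-type mean of 7.21 to 6.15, and wild type 2 stands above all other arrays for Stra6 and Cyp26a1.

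In bulk tissue, fewer cells of a type and less RNA per cell cannot be told apart, so cell type markers are given beside Rdh12. The visceral endoderm list, relative to the wild-type mean, was 0.097, 0.18 and −0.14 in mutants 1 to 3. Its values were thus above wild type in mutant 2 and below it in mutant 3, whereas Rdh12 was low in both. The endothelium list, with 7 of 7 genes measured, was 0.11, 0.29 and 0.51 in mutants 1 to 3, so it was highest where Rdh12 was lowest. Over the arrays its mean log2 signal ran from 7.73 to 8.07 in wild type and from 7.96 to 8.37 in the mutants. The primitive erythroid list (7 of 9 measured) was lowest in mutant 2, at −0.71, and the macrophage list (5 of 5) in mutant 3, at −0.28. Their means ran from 10.83 to 10.92 and from 5.44 to 5.54 in wild type, and from 10.17 to 10.80 and from 5.21 to 5.53 in the mutants. The part of these cell types in the Rdh12 values was not tested.

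Rdh11, the neighbour and close relative of Rdh12, encodes a retinal reductase of many tissues. It read 8.28, 8.25 and 8.42 in wild types 1 to 3, while mutants 1 to 3 read 8.18, 8.16 and 8.02. The genotypes did not overlap, as for 3.38% of all tested probe sets in this direction, and the 6 arrays stood in the same order as for Rdh12, from mutant 3 up to wild type 3. Rdh11 was 1 of 16 tested probe sets (0.0976%) besides Rdh12 with this order. The comparison was made after the order had been seen, in a gene picked for its values. The share is therefore a description and no support for a link between the pair. The difference was small, at −0.20 on the log2 scale (SE 0.088, 95% interval −0.40 to 0.0092), with a limma p of 0.0586 before and 0.999 after adjustment. It therefore did not pass. Under 16 alternatives the difference ran from −0.26 to −0.15. Leaving out arrays could not turn its sign, because the genotypes did not overlap. Whether probes of 1 of these related genes also capture RNA of the other was not tested.

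The genes on both sides of the pair are given beside it. Vti1b, a vesicle SNARE gene beside Rdh11, differed by −0.019 (SE 0.12). Zfyve26, beside Rdh12, differed by 0.11 (SE 0.13), and Rad51b, the next gene, by −0.033 (SE 0.10). The genotypes overlapped for each of these 3, and none passed in limma (adjusted p = 0.999). Arg2, an arginase gene next to Vti1b, had a mean of 3.21 over the arrays, below the filter of 4.29, and was not tested.

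Rdh10, whose product carries out the main oxidation of retinol to retinal in the embryo, read 8.13, 8.13 and 8.45 in wild types 1 to 3 and 8.26, 8.25 and 8.07 in mutants 1 to 3. The genotypes overlapped, with a log2 difference of −0.045 (SE 0.11, 95% interval −0.31 to 0.22). Dhrs3, whose product reduces retinal back to retinol and is known to be induced by retinoic acid, read 7.95, 7.81 and 8.04 in wild type and 7.93, 7.99 and 7.80 in the mutants. Its difference was −0.029 (SE 0.095, 95% interval −0.25 to 0.19). The sign of both turned when wild type 3 or mutant 3 was left out.

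Aldh1a1, which encodes a retinal dehydrogenase, was dim and read higher in the mutants. Its values were 4.41, 4.15 and 4.01 in wild types 1 to 3 and 4.47, 4.67 and 4.47 in mutants 1 to 3. The groups did not overlap, but wild type 1 lay close to mutants 1 and 3. The wild-type mean of 4.19 ± 0.20 (SD, n = 3) was below the filter on dim probe sets, and the mutant mean of 4.54 ± 0.12 (SD, n = 3) above it, so the gene passed, with a mean over all arrays of 4.36, only through the group in which it was higher. Its values and p are therefore given as a description. The difference was 0.35 (SE 0.12, 95% interval 0.066 to 0.63), or 1.27-fold, with a limma p of 0.0221 before and 0.999 after adjustment. Over all tested probe sets, 2.25% were higher and 1.28% lower at this unadjusted threshold, and 5.17% were higher without overlap. The split between directions was 369 higher and 210 lower, but 297 and 259 after each array was centred on its median, and 623 and 749 without mutant 3. The unadjusted p missed 0.05 without wild type 2 (0.0579), wild type 3 (0.0782) or mutant 2 (0.0766), while the difference stayed between 0.26 and 0.45.

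Aldh1a2 encodes the dehydrogenase that makes most retinoic acid in the early embryo, and its probe set was dim. It read 2.99, 3.21 and 3.03 in wild types 1 to 3 and 2.85, 2.98 and 2.89 in mutants 1 to 3, a mean of 2.99 over all arrays against the filter of 4.29. All mutant arrays were lower than all wild-type arrays, by a mean of −0.17 at a level where the gene was not tested. Of tested probe sets 3.38% did not overlap in this direction. That share was not computed for dim ones, so the values of Aldh1a2 are a description only. With no filter, limma gave 95% bounds of −0.39 and 0.044 and an adjusted p of 0.999.

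Stra6 and Cyp26a1 were set apart by a single wild-type array. Stra6, the receptor that moves retinol from RBP4 into cells, read 6.55 in wild type 2 and 4.88 to 5.21 in the other 5 arrays. Cyp26a1, the hydroxylase that degrades retinoic acid and carries the DR5 match shown above, read 6.44 in wild type 2, 5.38 in mutant 3 and 4.06 to 4.75 in the rest. Wild type 2 exceeded the next array by 1.34 for Stra6 and by 1.06 for Cyp26a1. Over all tested probe sets, 50 (0.305%) had wild type 2 highest by 1 or more, a count chosen after these values were seen. The genotypes overlapped for both genes.

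The genotype means of Stra6 and Cyp26a1 followed that array. Stra6 had a wild-type mean of 5.57 ± 0.85 (SD, n = 3) and a mutant mean of 4.96 ± 0.091 (SD, n = 3), a difference of −0.61 (SE 0.37, 95% interval −1.48 to 0.25; limma adjusted p = 0.999). Without wild type 2 it was −0.13, and without wild type 3 the unadjusted limma p was 0.0413. Cyp26a1 differed by −0.60 (SE 0.53, 95% interval −1.84 to 0.65; limma adjusted p = 0.999), and by 0.0047 without wild type 2. Both differences were therefore within the spread between replicates.

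Wild type 2 also had the highest mean of the trophoblast and decidua markers. Of the trophoblast and decidua list, 7 of 10 genes were measured and 5 passed the dim filter, Tpbpa and Ctsq being the dim ones. The list mean, relative to the wild-type mean, was 0.73 in wild type 2, 0.58 in mutant 2 and between −0.54 and −0.16 in the other arrays. Over the arrays its mean log2 signal ran from 4.74 to 5.89 in wild type and from 4.63 to 5.75 in the mutants. Of the 5 that passed, wild type 2 was the highest array only for Prl4a1 (7.13). Prl8a2 was highest in mutant 2 (9.11, with 7.44 in wild type 2), as was Hand1 (7.62, with 7.53). Plac1 was highest in mutant 3 (9.10, with 8.64 in wild type 2) and Tfpi2 in wild type 3 (6.90, with 6.58). Mutant 2, with the higher Prl8a2, read 5.06 for Stra6 and had the lowest Cyp26a1, at 4.06. The mesothelium and mesenchyme list, with 8 of 8 genes measured and passing the filter, was also highest in wild type 2. Relative to the wild-type mean it was 0.46 there, 0.30 in mutant 2 and between −0.24 and −0.0018 in the other arrays. Its mean log2 signal ran from 8.51 to 9.21 in wild type and from 8.55 to 9.06 in the mutants. Wild type 2 was the highest array for 4 of its genes, Wt1, Pdgfra, Acta2 (11.44) and Postn (10.20). Gata6 and Pdgfra, which are listed among retinoic acid responsive genes, were likewise highest in wild type 2, at 8.90 and 9.13 against at most 7.99 and 8.56 elsewhere. Pdgfra stands in both lists. Of the other tested responsive genes, Hoxb4, Tgm2 and Meis1 were also highest in wild type 2. Hoxa4, Cdx1, Meis2, Rai14 and Hoxb1 were not, and Hoxb1 was lowest there (5.57). The part of these cell types in the Stra6 and Cyp26a1 values was not tested.

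**Figure D2:**
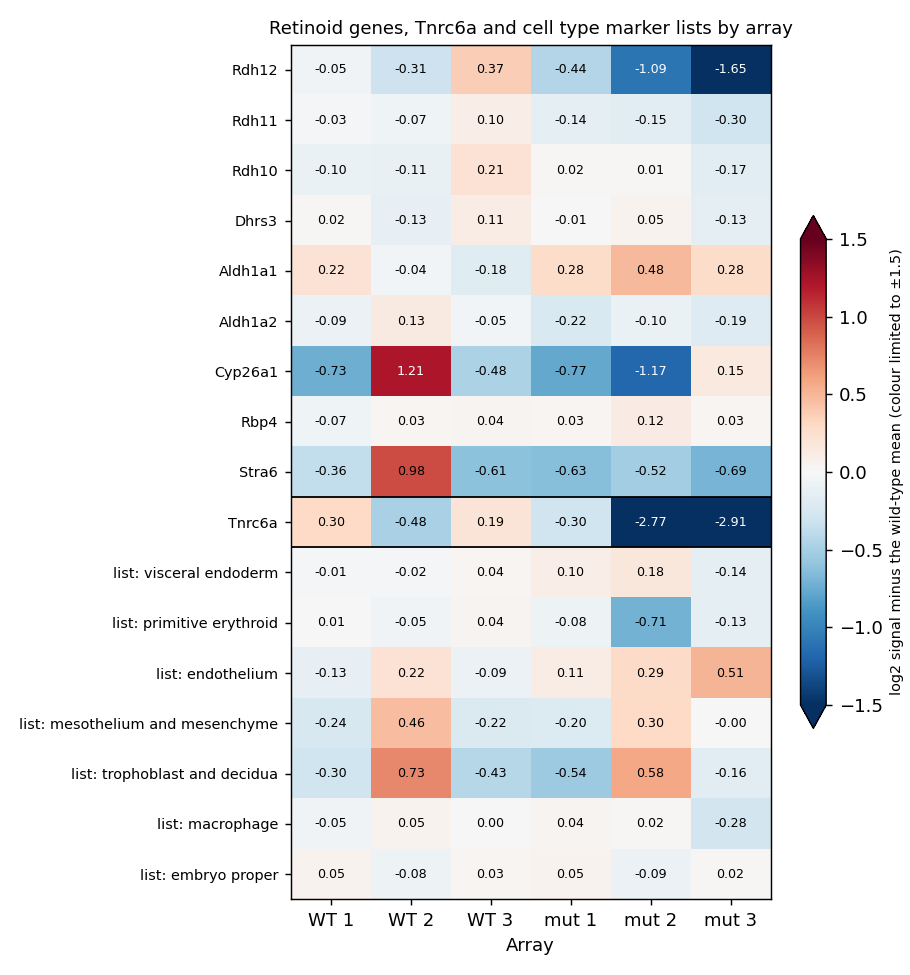
Deviation of the log2 signal from the wild-type mean in each array (columns) for the 9 retinoid genes, Tnrc6a, and the mean of each cell type marker list (rows); red is higher and blue lower. Rdh12 and Tnrc6a are lowest in mutants 2 and 3, and Cyp26a1, Stra6 and the trophoblast and decidua list are highest in wild type 2.

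Rbp4 varied least. It read 12.35, 12.44 and 12.46 in wild types 1 to 3 and 12.45, 12.54 and 12.45 in mutants 1 to 3. The arrays spanned only 0.19 on the log2 scale, and the genotypes overlapped. The difference was 0.061 (SE 0.078, 95% interval −0.12 to 0.24), an interval from 0.92-fold to 1.18-fold of wild type. Ttr, the transthyretin gene that encodes the partner of RBP4 in plasma, read 12.65 to 12.71 in wild type and 12.65 to 12.71 in the mutants (difference 0.0068, SE 0.073).

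Over the 8 members other than Rdh12, 7 passed the filter and were tested. Of these, 0 passed the adjusted limma test, against 0.0% of all tested probe sets. In limma 1 had an unadjusted p under 0.05, against 3.53% of all, and 0 did in the methods' t-test. The genotypes did not overlap for 2 of the 7, Rdh11 and Aldh1a1, in opposite directions, against 8.55% of all tested probe sets. Aldh1a1 was also the 1 with an unadjusted p under 0.05, and since it passed the filter only through the mutants these counts support nothing about the group. The mutant mean was lower for 5 and higher for 2, where 47.6% of all tested probe sets were lower. The median difference was −0.045, beside 0.0063 over all tested probe sets.

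**Figure D3:**
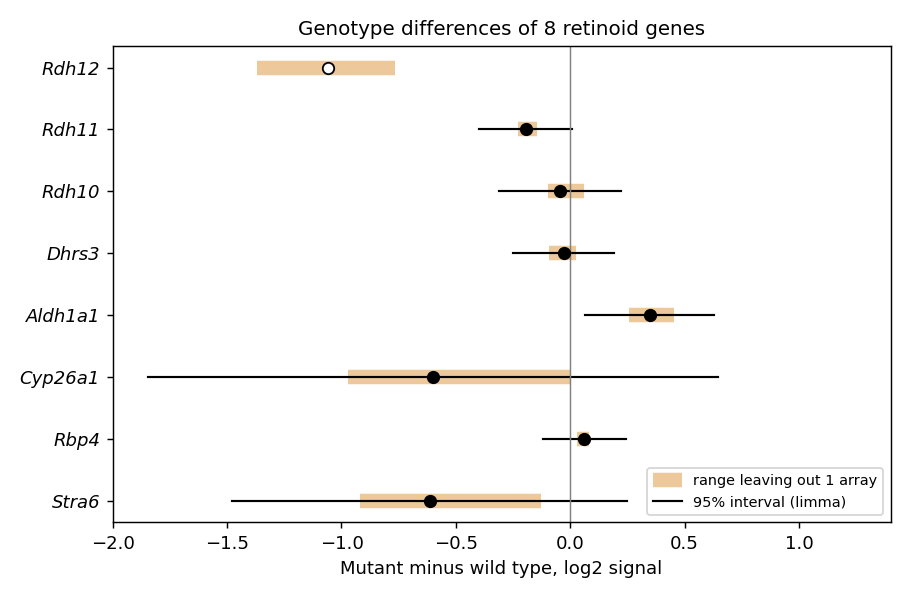
Mutant minus wild-type difference in log2 signal (x axis) for the 8 genes above the dim filter, with the 95% interval from limma (black line) and the range when 1 array is left out (orange bar); Rdh12 (open circle) was picked for its difference and has no interval. Stra6 and Cyp26a1 have wide intervals that include 0, and the bar of Cyp26a1 reaches 0.0047.

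Genes whose profile over the 6 arrays was most like Rdh12 were ranked by the root mean square difference after each probe set was centred on its own mean. Among 14732 single-symbol probe sets ranked, the nearest was Abhd1, a hydrolase-fold gene on chromosome 5, at 0.20, against a median of 0.68. It read 7.25, 7.12 and 7.96 in wild types 1 to 3 and 7.17, 6.14 and 6.19 in mutants 1 to 3. Abhd1 was thus low in mutants 2 and 3, while the library labelled mutant 1 lay within the wild-type range. Aldh1b1, a mitochondrial aldehyde dehydrogenase gene, was next, at 0.25, reading 7.37, 7.24 and 7.69 in wild type and 6.87, 6.40 and 6.40 in the mutants. The others of the nearest 5 were Slc6a13, a GABA and taurine transporter gene (0.28), Fbp2, a fructose bisphosphatase gene (0.29), and Gckr, the glucokinase regulator gene (0.30). The genotypes did not overlap for Aldh1b1 and Fbp2 and overlapped for Abhd1, Slc6a13 and Gckr. All 5 lie on other chromosomes than Rdh12. Rdh11 ranked 303rd by this measure, at 0.55, because its range of 0.40 was narrow beside the 2.01 of Rdh12. Genes chosen for likeness to Rdh12 share its arrays and its selection, so their differences are descriptions.

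The rest of the pathway showed no gene past the test. Of 83 further genes of retinoid transport, metabolism, reception and response, 75 had a probe set with a single symbol and 53 passed the dim filter. Of the 53, limma called 0 at an adjusted p under 0.05 and 0 at an unadjusted p under 0.05, where 3.53% of all tested probe sets were called, and the methods' t-test also put 0 under 0.05. The genotypes overlapped for all 53, against 8.55% not overlapping over all tested probe sets. The mutant mean was higher for 34 and lower for 19, with differences from −0.25 to 0.23 and a median of 0.031. Without mutant 3, 7 of the 53 had an unadjusted p under 0.05 in limma, 5 higher (Rdh5, Adh1, Ncoa2, Rbp2 and Lrp2) and 2 lower (Fabp5 and Adh5). Without wild type 2 there were 4, all higher (Dhrs7, Rarb, Gata6 and Meis2), and without the library labelled mutant 1 there was 1, Meis2. Over all 16387 tested probe sets the calls rose as well, from 579 to 1372 without mutant 3. They were 792 without wild type 2 (578 higher and 214 lower) and 714 without mutant 1. None of the 53 genes passed after adjustment in these fits.

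Since no tested gene of this list had non-overlapping genotypes, the genes named from it here were chosen after their values were seen. By role, the carriers and uptake genes had 7 tested members, 5 higher and 2 lower in mean, between −0.035 and 0.12. Lrp2, the megalin endocytic receptor that takes up RBP4, read 10.47, 10.30 and 10.34 in wild type and 10.57, 10.61 and 10.13 in mutants 1 to 3, so mutant 3 was the lowest array. Storage and carotenoid genes had 7 tested members between −0.036 and 0.21, among them Bco1, the enzyme that cleaves beta-carotene to retinal, at 0.015 (SE 0.15). The other retinol and retinal oxidoreductases had 11 tested members, 8 higher and 3 lower. Rdh5, a retinol dehydrogenase known from the retinal pigment epithelium, had the lowest p of the 53 genes. It differed by 0.23 (SE 0.11), with an adjusted limma p of 0.999. Rdh5 read 5.13 and 5.05 in wild types 1 and 2, was lowest in wild type 3, and read 5.27, 5.49 and 5.12 in mutants 1 to 3, with mutant 3 just below wild type 1. Rdh13, a further relative of Rdh12, differed by 0.082 (SE 0.087). Of these 11, none was lower by more than 0.19, the difference of Adh5, beside −0.20 for the member Rdh11.

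Of the genes that act after retinoic acid is made, the 3 tested carriers were lower in mean. Fabp5, which can carry retinoic acid to the nucleus, was lower by a mean of −0.25 (SE 0.19; the brighter of 2 probe sets). Crabp2, a cellular retinoic acid binding protein, differed by −0.19 (SE 0.27). Fabp5 read 7.42, 7.53 and 7.70 in wild type and 6.97, 7.17 and 7.75 in mutants 1 to 3, so mutant 3 was its highest array. The clearance genes Cyp26b1, Cyp26c1 and Cyp2s1 differed by 0.075, 0.044 and 0.065. Of 6 tested receptors 5 were higher in mean, between −0.039 and 0.15. Rarb, with the DR5 match shown above, read 5.02, 5.38 and 5.04 in wild type and 5.22, 5.27 and 5.41 in mutants 1 to 3 (difference 0.15, SE 0.12). Wild type 2 was among the high arrays for Rarb, as it was for Cyp26a1, but mutant 3 was the highest for Rarb. Mutant 2, the lowest array for Cyp26a1 (4.06), read 5.27 for Rarb. The 10 tested retinoic acid responsive genes had a median difference of −0.028, 3 higher and 7 lower in mean, with Tgm2, a transglutaminase, at −0.16 (SE 0.11) and Meis2, a homeobox gene, at 0.22 (SE 0.13).

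**Figure D4:**
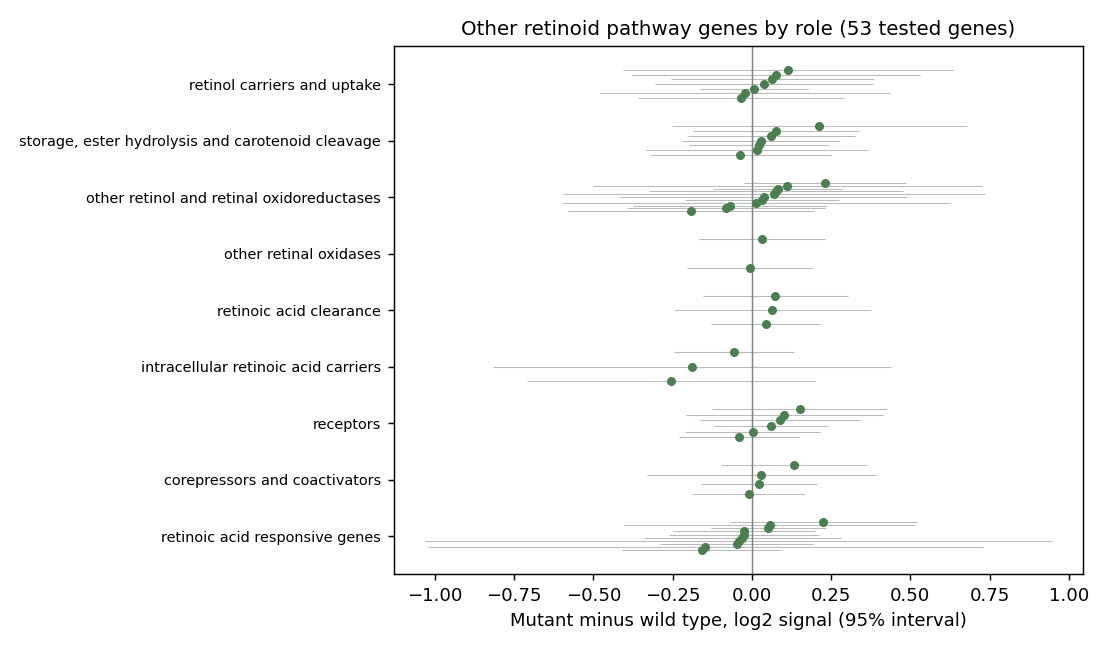
Mutant minus wild-type difference in log2 signal (x axis) with its 95% limma interval for 53 further retinoid pathway genes, grouped by role (y axis); each point is 1 gene. All points lie between −0.25 and 0.23 and every interval includes 0.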

How the data were processed

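The authors deposited 1 table of log2 signals for 35557 probe sets on 6 arrays; the submitters' processing notes name MAS5 and no other tool, and for probe summary and normalization the sources used here give no method. The log2 scale was read from the values (0.66 to 13.7). Values were used as deposited. Genes were named through the platform annotation (21789 probe sets with 1 symbol, 1621 with several, 12147 with none). A dim filter kept named probe sets averaging at least 4.29, the 30th percentile of named probe sets. The 16387 kept were fitted with limma 3.58.1 (lmFit, eBayes) under R 4.3.3 as mutant minus wild type without a block, and p-values were adjusted by Benjamini-Hochberg over all of them. The residual degrees of freedom were 4 and the prior ones 3.47. Where a gene had several probe sets the brightest was used. The rule for named genes took every member, the 5 probe sets nearest to Rdh12, Tnrc6a, and up to 4 pathway genes of each role with the lowest p among those with non-overlapping genotypes, of which there were 0; pathway genes named beyond it were chosen after their values were seen. The members, lists and tests were chosen with earlier results of these data known. Each array is 1 embryo's yolk sac, per the labels. The fit was also run on simulated data with independent noise for each probe set. That setting leaves out deviations shared across an array and a doubtful label, and no result here rests on it. Alternatives changed the filter, array scaling, array weights, variance model, probe set rule, test, block and arrays used. Promoters are from RefSeq (GRCm38.p6), which had windows for 8 of the 9 members; the array's own build is not given, so gene coordinates are not printed.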

Additional observations from a re-analysis of the deposited data

How the results depend on the processing

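Adjusted calls among the 7 tested members and among the 53 further genes were 0 in each of 16 alternatives. Over all probe sets they were 0 in 15 of 16 and 1, Tnrc6a, when wild type 2 and mutant 1 were both left out. Wild type 2 had the lowest Tnrc6a of the wild types (7.62) and mutant 1 the highest of the mutants (7.81). Leaving both out therefore widens the Tnrc6a difference by the choice of arrays, and that call is no support. The count at an unadjusted p under 0.05 over all probe sets was 1086 with array weights and 1173 without those 2 arrays together, and ran from 395 to 1372 (without mutant 3) when 1 array was left out. Among the members this count of 1 became 0 with the filter at the 50th percentile, which leaves Aldh1a1 untested, with the methods' t-test (0) and without those 2 arrays together (0), and was 0 to 1 when 1 array was left out. Among the further genes the count of 0 became 2 with array weights (Rdh5 and Fabp5), 7 without those 2 arrays together and 1 (Meis2) with the replicate number as a block, and was 0 to 7 when 1 array was left out. Deviations from the group means of same-numbered arrays correlated at 0.45, 0.15 and −0.11, and those of arrays with unlike numbers at −0.45 to 0.24. With 3 arrays a group the deviations sum to 0, so these values cannot settle whether the numbers pair the arrays. The block changed no other count by more than 1.5 times (727 probe sets over all). Rdh12 differed by −1.37 to −0.76 when 1 array was left out and by −1.53 without the 2 arrays together. The sign turned for Rdh10 (−0.099 to 0.061) and Dhrs3 (−0.092 to 0.026) when 1 array was left out, and for Cyp26a1 when 1 array was left out (−0.97 to 0.0047) or those 2 together (0.091). The cause was not tested. With 3 arrays a group the median standard error was 0.10.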

Other observations

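Of the 75 further pathway genes on the array, 53 passed the dim filter. Among the rest, which were dim, the genotypes did not overlap for 3. The share without overlap was 8.55% over all tested probe sets and was not computed for dim ones. The count of 3 is therefore a description only. Lrat, which esterifies retinol for storage, read 3.56, 3.25 and 3.58 in wild types 1 to 3 and 3.74, 3.62 and 3.59 in mutants 1 to 3. Stra8, a retinoic acid induced gene of germ cells, read 2.30, 2.45 and 2.51 in wild type and 2.56, 2.94 and 2.56 in the mutants. Awat2, an acyltransferase that can esterify retinol, read 3.70, 3.69 and 3.88 in wild type and 3.66, 3.62 and 3.62 in the mutants. None of the 3 was tested, and they were chosen after their values were seen.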
